A study of Monascus purpureus with 6 samples.

Results

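The genome assembly of Monascus purpureus YY-1, a filamentous ascomycete used to make red yeast rice and food colorants, places almost all of its predicted genes on 8 large scaffolds named C1 to C8. The genes described here are those that lie elsewhere, on 20 small scaffolds that hold 99 of the 7491 rows of the count table. They were chosen by the scaffold in the gene identifier and by a count of at least 10 in at least 3 of the 6 libraries, which kept 93 genes on 19 scaffolds, or 1.24% of all rows, and left out 6. The change between strains was not used in the choice, but the count rule also admits genes read in 1 strain alone. No winter library reached 10 counts for 5 of the 93 genes, and no YY-1 library did for 1.

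The winter strain was compared with its parent YY-1, with 3 RNA-seq libraries each from independent triplicate cultures, and RNA was taken from mycelia after 8 days of cultivation. Winter is an insertional mutant of YY-1 that secretes little citrinin, a nephrotoxic polyketide. It was picked after protoplasts of YY-1 were transformed with the hygromycin B resistance cassette of plasmid pHPH, which inserts at random. It is a single transformant, so an effect of the inserted cassette and any other change that this isolate carries cannot be told apart, and the place of the insertion is not given in the sources used here. YY-1 is the parent strain, without the cassette. The cassette is not a row of the count table, so the strain labels could not be checked by a targeted gene.

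A draft assembly breaks off where repeats or uneven coverage stop it from joining sequence, and the short pieces that result may be parts of chromosomes near telomeres, centromeres or transposons, near-identical copies of other loci, or extra chromosomal elements. In filamentous fungi, subtelomeric regions are known for fast gene turnover and for clusters of secondary metabolism genes, and gene silencing by chromatin can act there over neighbouring genes. Which of these applies to any of the 20 scaffolds is not known from the count table, which gives no sequence, no length and no position other than the order of the gene numbers. No gene symbol was matched to any of the 93 genes. The part used here of the study's supplementary gene ontology terms names 15 of them. It covers only genes that the study called higher in winter, so the direction of those 15 is not independent of their having a term, and the other 78 may have terms that were not used here.

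The small scaffolds were very unequal. Scaffold00023 carried 57 genes, of which 54 met the count rule, and scaffold00026 carried 16, all of which did. Scaffold00028 and scaffold00029 had 4 genes each, scaffold00030 and scaffold00033 had 2 each, and 14 scaffolds had a single gene. By contrast, C1 to C8 each carried between 578 and 1285 genes. Just inside the count rule, by the count their 3 highest libraries all reached, were scaffold00036.1 at 10, scaffold00023.29 at 18 and scaffold00028.3 at 19. Just outside it were scaffold00023.24 at 7, scaffold00023.27 at 6 and scaffold00028.1 at 3, followed by scaffold00050.1 at 2 and by scaffold00023.22 and scaffold00033.2 at 0.

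The winter libraries held between 15194009 and 16004947 counted reads and the YY-1 libraries between 9661178 and 10595943, so depth differed between the strains in one direction. Libraries were set on 1 scale with trimmed mean of M values (TMM) factors, and levels are given as TMM-normalized CPM, the reads of a gene per 1e6 reads of the scaled library. CPM is not divided by exon length, so it compares a gene between strains and not 1 gene with another. Across all 7355 tested genes the median log2 fold change, winter over YY-1, was -0.03, and it was -0.13 when libraries were scaled by their totals alone. YY-1 replicate c had the highest level of the 3 YY-1 libraries in 41.9% of the 93 genes, against 32.6% of the genes of C1 to C8. On single large scaffolds this share ran between 28.7% on C4 and 44.2% on C2.

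A larger share of the genes of the small scaffolds than of C1 to C8 was called lower in winter. A gene was called where the adjusted p of edgeR's quasi-likelihood test, corrected over all tested genes, was under 0.05. Of the 93 genes, 39 (41.9%) were called lower in winter and 27 (29.0%) higher. Among all tested genes, 25.5% were called lower and 22.5% higher. On C1 to C8 the counts were 1834 (25.3%) lower and 1631 (22.5%) higher of 7262. No single large scaffold reached the share of lower genes on the small ones: it ran between 22.2% on C3 and 30.6% on C2. The share of higher genes ran between 18.8% on C2 and 24.4% on C6.

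Among larger changes, too, lower genes outnumbered higher ones. A change of more than 2-fold was called lower for 26 of the 93 genes and higher for 10, where the shares among all tested genes were 12% lower and 8.92% higher. The median log2 fold change was -0.26 with quartiles of -1.20 and 0.58, against -0.03 on C1 to C8, where the medians of single scaffolds ran between -0.11 on C2 and 0.02 on C7. Disregarding sign, the median change was 0.81 on the log2 scale on the small scaffolds and 0.47 over all tested genes. The 3 winter and the 3 YY-1 values did not overlap for 67 of the 93 genes (72.0%), of which 28 lay above YY-1 and 39 below it. Over all tested genes this share was 57.8%, and on C1 to C8 it ran between 54.3% on C3 and 61.8% on C8.

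Some genes met the count rule through 1 strain alone and so had to differ. No winter library reached 10 counts for 5 genes (scaffold00023.28, scaffold00028.3, scaffold00029.2, scaffold00029.3 and scaffold00036.1), and no YY-1 library did for scaffold00023.18. Over the 85 genes with at least 10 counts in all 6 libraries, 32 (37.6%) were lower and 26 (30.6%) higher. The strains did not overlap for 59 (69.4%), and the median log2 fold change was -0.11. Among all tested genes 25.5% were lower, 22.5% were higher and 57.8% did not overlap, but those genes were not restricted in the same way. A change of more than 2-fold was called lower for 19 of the 85 genes (22.4%) and higher for 9 (10.6%), against 12% and 8.92% of all tested genes. Lower genes outnumbered higher ones by less in this set.

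The direction was not shared by all scaffolds. Scaffold00023 was nearly even, with 20 of its 54 genes higher (37.0%) and 19 lower (35.2%), and its median log2 fold change was 0.01. Scaffold00026 had 5 of 16 genes higher and 4 lower, with a median of 0.20, and the number of lower genes was 2 when winter replicate b, winter replicate c or YY-1 replicate a was left out. On the other 17 scaffolds together, 16 of 23 genes were lower (69.6%) and 2 higher (8.70%), with a median of -1.13. The 2 higher calls depended on single libraries: there were 0 without winter replicate c or YY-1 replicate a, 1 without winter replicate a, winter replicate b or YY-1 replicate b, and 3 without YY-1 replicate c. Of those 23 genes, 19 had at least 10 counts in all 6 libraries, and 12 of the 19 were lower (63.2%) and 2 higher. The median log2 fold change of the 19 was -0.81. On 11 of the 19 scaffolds, every gene that met the count rule was called lower, although 9 of those 11 hold only 1 gene. Among all tested genes, 25.5% were called lower. Of the genes on these 11 scaffolds, scaffold00028.3, scaffold00029.2, scaffold00029.3 and scaffold00036.1 met the count rule through YY-1 alone. The call of scaffold00046.1 was lost whichever library was left out.

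**Figure D1:**
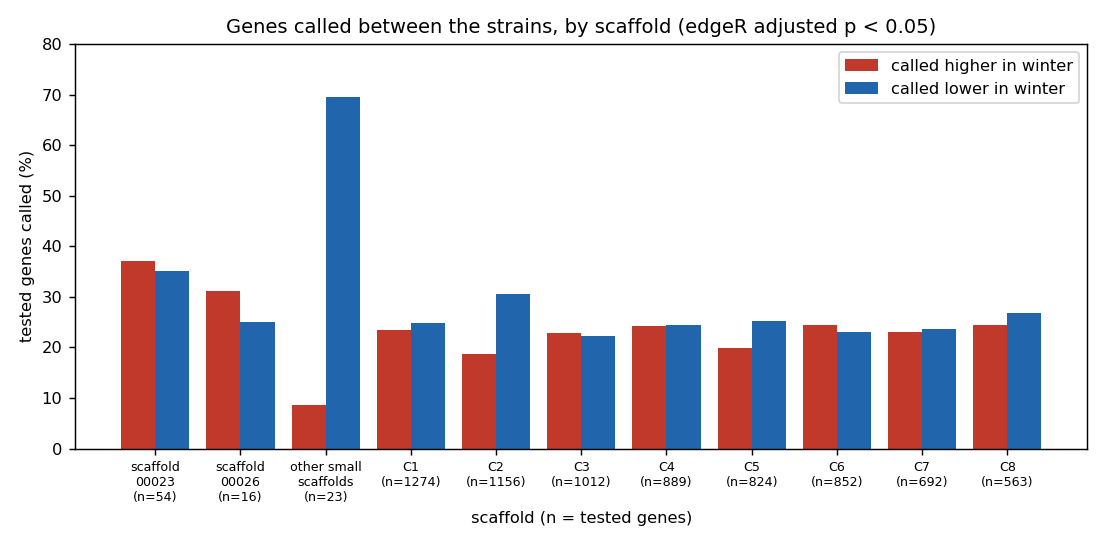
Share of tested genes called higher or lower in winter (edgeR adjusted p under 0.05), for scaffold00023, scaffold00026, the other 17 small scaffolds as 1 set and each of C1 to C8, with the number of tested genes under each pair of bars. The other small scaffolds stand at 69.6% lower and 8.70% higher (2 genes, or 0 to 3 with single libraries left out). On C1 to C8 the share of lower genes stays between 22.2% and 30.6%. Of the lower genes on the other small scaffolds, scaffold00028.3, scaffold00029.2, scaffold00029.3 and scaffold00036.1 met the count rule through YY-1 alone and so had to differ. Among the 19 genes there with at least 10 counts in all 6 libraries, 63.2% were lower.

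Scaffold00029 carried the only genes of the small scaffolds that had no read in winter and at least 30 in YY-1. Its 2 inner genes had no read in any winter library, and both outer genes were lower in winter but still read there.

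Scaffold00029.2 had counts of 0, 0 and 0 in the winter libraries, against 42, 66 and 58 in the YY-1 libraries. Scaffold00029.3 had counts of 0, 0 and 0 in winter, against 44, 59 and 47 in YY-1. The strains did not overlap at either gene, and every winter library was at 0 although it was sequenced more deeply. Both genes met the count rule through YY-1 alone and so had to differ. A count of 0 in winter allows up to 3 counts over the 3 libraries, or 0.0663 CPM, so scaffold00029.2 was at least 79.6-fold lower in winter (edgeR adjusted p = 1.75e-05) and scaffold00029.3 at least 71.9-fold lower (adjusted p = 1.41e-05). These bounds take the YY-1 level as measured and cover counting error in winter only. The adjusted p is for any change between strains and not for the bound.

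The gene before them, scaffold00029.1, had counts of 18, 14 and 13 in winter, against 41, 38 and 31 in YY-1, and its log2 fold change was -1.80 ± 0.27 (SE, adjusted p = 0.000474). The gene after them, scaffold00029.4, had levels of 12.3, 10.1 and 9.48 CPM in winter, against 20.4, 16.3 and 19.1 CPM in YY-1. It was called lower as well, at -0.81 ± 0.18 (SE, adjusted p = 0.0037), but all 3 winter libraries held well over 100 reads of it. Genes that were still read in winter thus lay on both sides of the pair at 0.

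In the whole table, only 3 of 7491 rows (0.04%) had no read in any library of 1 strain and at least 30 in the other. The 2 inner genes of scaffold00029 are 2 of them. The other is C8.576, with counts of 0, 0 and 0 in winter, against 533, 685 and 496 in YY-1. By the same kind of bound it was at least 822-fold lower in winter (edgeR adjusted p = 2.93e-07). Of the other rows with no read in 1 strain, none had more than 10 counts in the other. C8.576 lies among the last genes of C8, and its neighbours were close to 0 in winter too. C8.575 had counts of 0, 1 and 1 in winter, against 4234, 3150 and 2817 in YY-1. C8.577 had counts of 1, 3 and 0 in winter, against 6116, 5728 and 5384 in YY-1. The last gene of C8, C8.578, had counts of 0, 0 and 1 in winter, against 377, 359 and 275 in YY-1. These 4 genes at the end of C8 and the 2 inner genes of scaffold00029 were the only 6 of the 7355 tested genes whose fitted log2 fold change fell below -6. The next largest fall was that of C2.84, at -5.87. On the log2 scale the bounds for scaffold00029.2 and scaffold00029.3 were only -6.31 and -6.17. C8.574, the gene before that stretch, had counts of 108, 86 and 82 in winter, against 53, 64 and 69 in YY-1, and was not called (log2 fold change 0.04, adjusted p = 0.892). Whether such genes are missing from the winter genome or are present and not transcribed cannot be told apart from counts, and whether scaffold00029 adjoins C8 is not known from the table.

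**Figure D2:**
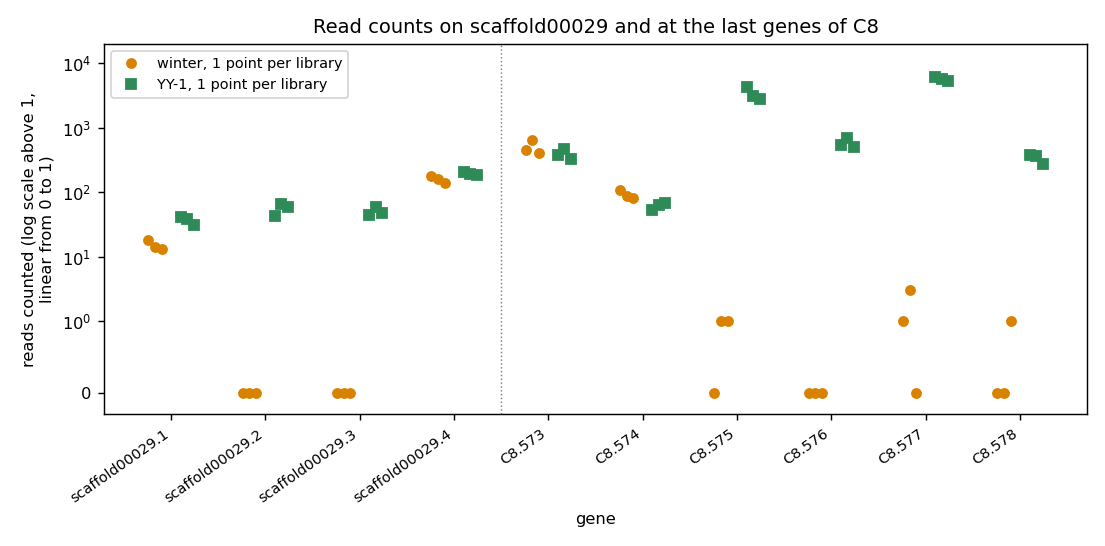
Reads counted in each library for the 4 genes of scaffold00029 (left of the dotted line) and genes C8.573 to C8.578 (right), with 1 point per library and winter left of YY-1, on an axis that is logarithmic above 1 and linear between 0 and 1. The inner genes of scaffold00029 and C8.576 are at 0 in all winter libraries, C8.575, C8.577 and C8.578 have between 0 and 3 reads there, and the flanking genes are read in both strains.

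Most single-gene scaffolds carried a gene that was lower in winter. Of the 13 that met the count rule, 9 were called lower (69.2%), 2 higher (15.4%) and 2 were not called, where 25.5% of all tested genes were lower and 22.5% higher. The median log2 fold change of the 13 was -1.20. Among the 9, scaffold00036.1, met the count rule through YY-1 alone. Near-identical copies elsewhere in the genome, which short scaffolds can represent, could split reads with these genes, and that was not tested.

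Scaffold00034.1 had the highest level of the single-gene scaffolds in YY-1. Its level was 343, 394 and 363 CPM in winter, against 1208, 842 and 1537 CPM in YY-1, so every winter library lay below every YY-1 library. The log2 fold change was -1.71 ± 0.23 (SE, adjusted p = 0.000239), a level 3.26-fold lower in winter. This gene took a large part of the reads of its class: of all reads on the 17 scaffolds other than scaffold00023 and scaffold00026, it held 34.11%, 37.1% and 35.8% in winter and 58.9%, 51.7% and 62.8% in YY-1.

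Scaffold00032.1 showed the deepest fall among the single-gene scaffolds. It stood at 25.3, 24.3 and 25.3 CPM in winter, against 171, 136 and 117 CPM in YY-1. The winter libraries were close to each other and far below YY-1, with a log2 fold change of -2.50 ± 0.17 (SE, adjusted p = 3.98e-06), or 5.66-fold lower in winter.

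Lower levels were also called for genes with few reads. Scaffold00039.1 had 0.952, 2.15 and 1.08 CPM in winter, against 9.35, 6.08 and 5.82 CPM in YY-1 (log2 fold change -2.32 ± 0.34, SE, adjusted p = 0.000347). Scaffold00047.1 had 1.84, 1.52 and 1.63 CPM in winter, against 5.51, 7.63 and 5.40 CPM in YY-1 (-1.90 ± 0.24, SE, adjusted p = 0.000168). At both genes the strains were apart in every library. Scaffold00043.1, which was better covered, had 51.6, 43.5 and 46.3 CPM in winter, against 127, 110.1 and 109 CPM in YY-1, a log2 fold change of -1.29 ± 0.14 (SE, adjusted p = 6.92e-05). Scaffold00036.1, scaffold00048.1, scaffold00042.1 and scaffold00046.1 were also lower, at log2 fold changes of -1.82, -1.20, -1.13 and -0.39. The call of scaffold00046.1 (adjusted p = 0.0452) was lost whichever of the 6 libraries was left out, with adjusted p-values between 0.0519 and 0.145.

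Both rises on single-gene scaffolds were small. Scaffold00045.1, with the term nucleoside binding, had 162, 222 and 192 CPM in winter, against 127, 120.1 and 161 CPM in YY-1, and the lowest winter library lay just above the highest YY-1 library. Its log2 fold change was 0.50 ± 0.18 (SE, adjusted p = 0.0413). Scaffold00049.1 had 103, 79.4 and 100.1 CPM in winter, against 62.5, 48.4 and 78.2 CPM in YY-1, with a log2 fold change of 0.58 ± 0.19 (SE, adjusted p = 0.0289). The call of scaffold00045.1 was lost without winter replicate b or c or YY-1 replicate a or b (adjusted p between 0.111 and 0.126), and that of scaffold00049.1 without winter replicate a or c or YY-1 replicate a or b (adjusted p between 0.0741 and 0.0941). Scaffold00031.1 and scaffold00041.1 were not called, at 0.36 ± 0.16 and -0.26 ± 0.28 (SE).

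**Figure D3:**
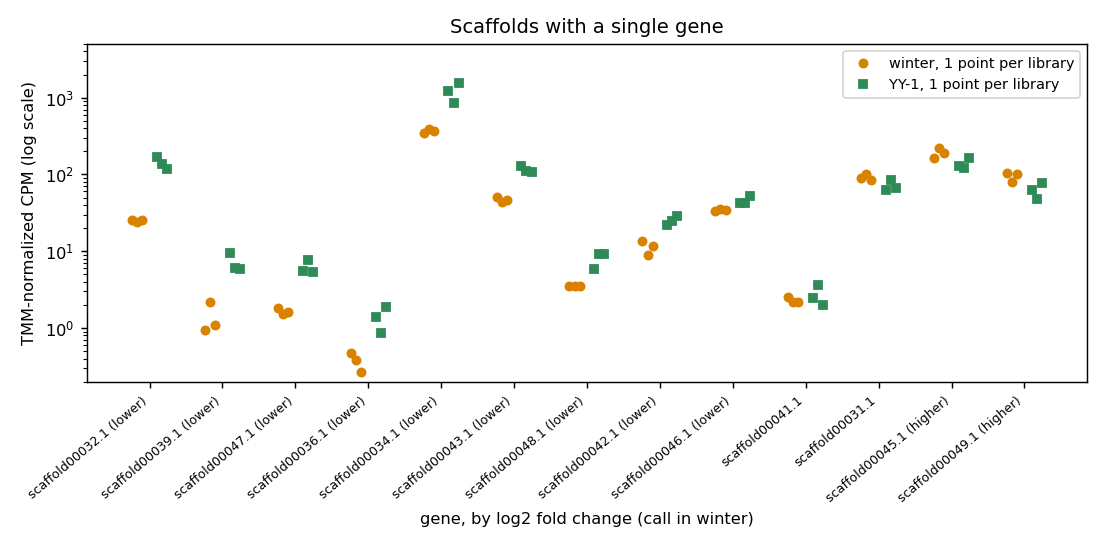
TMM-normalized CPM in each library, on a logarithmic axis, of the 13 genes that stand alone on their scaffold and met the count rule, ordered by log2 fold change, with winter left of YY-1 and the call in brackets. In 9 of the genes the winter points were called lower, among them scaffold00032.1 at 24.3 to 25.3 CPM in winter and 117 to 171 CPM in YY-1.

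Of the scaffolds with 2 to 4 genes, scaffold00028 behaved like scaffold00029 in direction. All 3 of its genes that met the count rule were lower in winter. Scaffold00028.3 had counts of 5, 3 and 1 in winter, against 24, 19 and 21 in YY-1, with a log2 fold change of -3.30 ± 0.46 (SE, adjusted p = 0.000277). It met the count rule through YY-1 alone and so had to differ. Scaffold00028.4 was read far more, at 88.4, 73.8 and 62.1 CPM in winter and 125, 104 and 163 CPM in YY-1, and fell less (-0.80 ± 0.20, SE, adjusted p = 0.00722). Scaffold00028.2, which comes before both in the gene order, had a log2 fold change of -0.82 ± 0.22 (SE, adjusted p = 0.0109). The 2 genes of scaffold00030 and scaffold00033.1 were not called, with log2 fold changes of -0.37, 0.53 and -0.57.

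Scaffold00023 held rises and falls side by side, and 8 of its 19 lower genes lay in a stretch in the middle of the gene order that held no higher gene. When the scaffold was divided after its values were seen, genes 1 to 18 had 10 higher (55.6%) and 6 lower (33.3%) genes with a median log2 fold change of 0.59. Genes 31 to 57 had 10 higher (37.0%) and 5 lower (18.5%) of 27, with a median of 0.06. Between them, genes 19 to 30 had no higher gene and 8 lower of the 9 that met the count rule, with a median of -1.78. The 3 genes of that stretch below the count rule were scaffold00023.22, scaffold00023.24 and scaffold00023.27. Of the 6 genes there with at least 10 counts in every library, 5 were lower. For comparison, 25.5% of all tested genes were called lower and 22.5% higher. The division has no test, since it was drawn from these values.

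The 8 lower genes between scaffold00023.20 and scaffold00023.30 followed each other without another tested gene between them. On C1 to C8 the longest run of lower genes was between 6 and 9 genes long on each scaffold, so a run of this length was not particular to scaffold00023. Over the whole of scaffold00023, the correlation of log2 fold changes between neighbouring tested genes was r = 0.44 over 53 pairs. It was -0.10 over 15 pairs on scaffold00026 and 0.28 over 7254 pairs on C1 to C8. These values describe genes that share the same 6 libraries and are not a test.

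The largest fall on scaffold00023 was that of scaffold00023.28, which lies in this middle stretch and is named although its mean count was too low for the naming rule. It had counts of 8, 3 and 8 in winter, against 104, 88 and 57 in YY-1, and its level was 18.4-fold lower in winter (log2 fold change -4.20 ± 0.37, SE, adjusted p = 1.74e-05). Scaffold00023.25 was the best covered lower gene of the stretch, at 22.5, 19.01 and 23.23 CPM in winter, against 76.5, 64.5 and 57.02 CPM in YY-1 (-1.61 ± 0.16, SE, adjusted p = 3.84e-05). Scaffold00023.20 had 2.11, 1.08 and 1.76 CPM in winter, against 9.84, 9.17 and 5.30 CPM in YY-1 (-2.30 ± 0.32, SE, adjusted p = 0.000263). In all 3 the strains were apart, but scaffold00023.28 met the count rule through YY-1 alone and so had to differ. The other lower genes of the stretch, scaffold00023.21, scaffold00023.23, scaffold00023.26, scaffold00023.29 and scaffold00023.30, had log2 fold changes between -2.91 and -1.65. Scaffold00023.19 was not called (adjusted p = 0.0582): it had 7.42, 5.64 and 8.80 CPM in winter, against 19.9, 19.7 and 5.09 CPM in YY-1, where replicate c lay below every winter library.

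Outside the middle stretch, the largest falls of scaffold00023 lay among genes that were mostly higher or not called. Scaffold00023.44 had 32.8, 25.7 and 29.9 CPM in winter, against 325, 257 and 200.1 CPM in YY-1. It was 8.86-fold lower in winter (log2 fold change -3.15 ± 0.21, SE, adjusted p = 3.45e-06). Scaffold00023.52 had 46.0, 59.0 and 52.3 CPM in winter, against 299, 265 and 304 CPM in YY-1, or 5.52-fold lower in winter (-2.46 ± 0.16, SE, adjusted p = 3.23e-06). At both genes the gap between strains was wider than the spread within either. Scaffold00023.36 was at 4.15, 2.79 and 2.84 CPM in winter, against 11.8, 9.94 and 13.0 CPM in YY-1 (-1.82 ± 0.22, SE, adjusted p = 0.00012).

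Just before the middle stretch, 4 consecutive genes were higher in winter, scaffold00023.15 to scaffold00023.18. Scaffold00023.15 had the largest rise of all 93 genes, with 12.1, 19.96 and 14.6 CPM in winter, against 4.43, 3.08 and 3.01 CPM in YY-1. It was 4.43-fold higher in winter (log2 fold change 2.15 ± 0.25, SE, adjusted p = 9.79e-05). Scaffold00023.16, with the term nucleotide binding, had 38.0, 36.1 and 36.03 CPM in winter, against 14.6, 13.2 and 12.8 CPM in YY-1 (1.44 ± 0.14, SE, adjusted p = 3.57e-05). At both genes the lowest winter library was more than 2-fold above the highest YY-1 library. Scaffold00023.17, with 82.2, 82.9 and 81.4 CPM in winter, against 43.2, 42.3 and 44.0 CPM in YY-1, rose by 0.93 ± 0.13 on the log2 scale (SE, adjusted p = 0.000252).

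Scaffold00023.18 ended this run. Its terms are FAD binding, the binding of the flavin cofactor that many oxidoreductases use, and carotenoid biosynthesis, the pathway of orange and red isoprenoid pigments. Its counts were 20, 35 and 23 in winter, against 5, 5 and 4 in YY-1, so it was weakly read in both strains. It met the count rule through winter alone and so had to differ. Its terms come from genes that the study called higher in winter, so its direction is no independent finding. The log2 fold change was 1.93 ± 0.38 (SE, adjusted p = 0.00224).

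**Figure D4:**
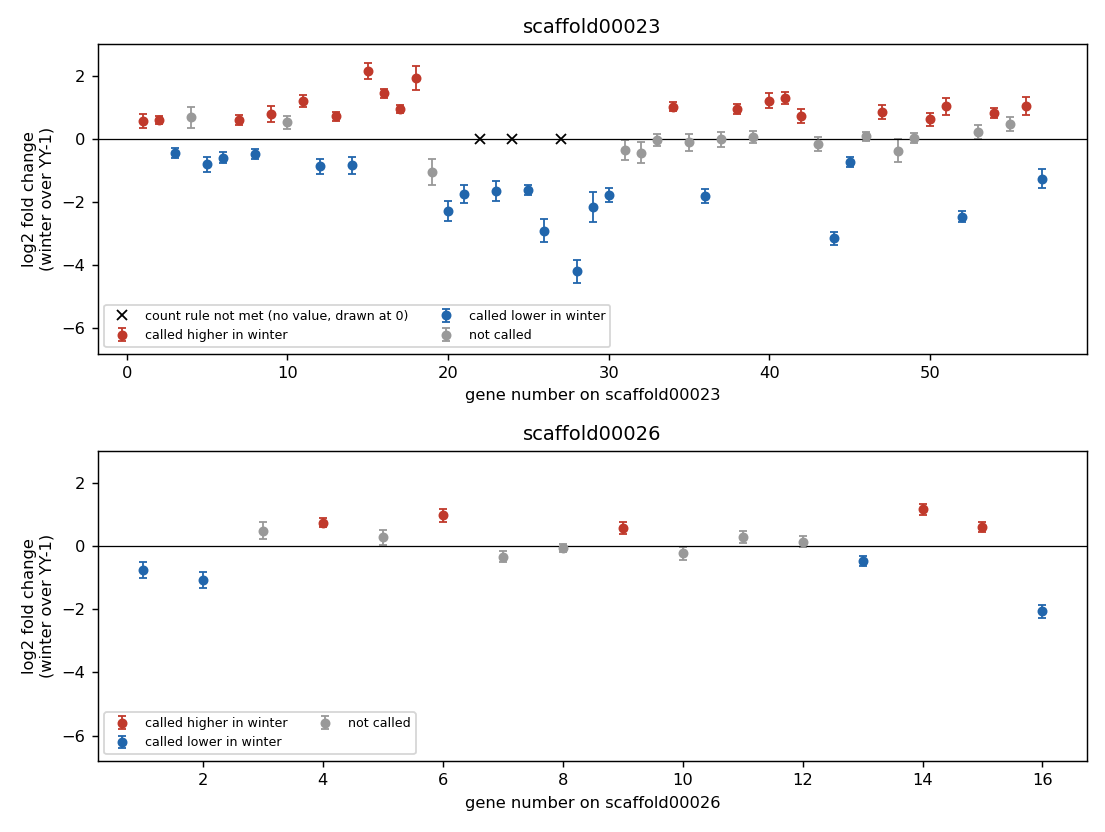
Log2 fold change of winter over YY-1 with its SE (edgeR) against the gene number, on scaffold00023 (top) and scaffold00026 (bottom), coloured by the call, with genes under the count rule marked by a cross at 0. On scaffold00023 the rise of genes 15 to 18 is followed by 8 lower genes between 20 and 30. The deepest of them, scaffold00023.28 at -4.20, met the count rule through YY-1 alone. On scaffold00026 rises and falls are mixed.

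A run of 3 higher genes stood further along, at scaffold00023.40 to scaffold00023.42. Scaffold00023.41 had 34.4, 28.9 and 37.5 CPM in winter, against 15.6, 10.4 and 15.4 CPM in YY-1 (log2 fold change 1.29 ± 0.19, SE, adjusted p = 0.000444). Scaffold00023.40 had 10.7, 18.1 and 11.9 CPM in winter, against 6.69, 5.83 and 5.19 CPM in YY-1 (1.20 ± 0.24, SE, adjusted p = 0.00207). At both genes all winter values exceeded all YY-1 values. Scaffold00023.42, a predicted serine-type peptidase, a protein-cutting enzyme with a serine at its active site, had 12.1, 9.06 and 11.5 CPM in winter, against 6.30, 5.06 and 8.62 CPM in YY-1. It rose by 0.72 ± 0.23 on the log2 scale (SE, adjusted p = 0.0252), but the call was lost without winter replicate a or c or YY-1 replicate a or b (adjusted p between 0.0687 and 0.087).

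Other genes of scaffold00023 have terms for enzymes or synthesis pathways. The terms used here cover only genes that the study called higher in winter, so the direction of these genes is no independent finding. Scaffold00023.2 carries the term ATP phosphoribosyltransferase, the enzyme of the first step of histidine synthesis. It had 208, 195 and 198 CPM in winter, against 132, 133 and 134 CPM in YY-1, and the narrow spread in both strains gave a log2 fold change of 0.59 ± 0.14 (SE, adjusted p = 0.00522). Scaffold00023.34, with the term cobalamin biosynthesis, had 301, 305 and 312 CPM in winter, against 155, 149.9 and 150.3 CPM in YY-1, about 2-fold higher (log2 fold change 1.01 ± 0.14, SE, adjusted p = 0.000308). Cobalamin is made by bacteria and archaea, and fungi are not known to synthesize it. Scaffold00023.54, with terms for a serine-type endopeptidase and an ATPase as found together in ATP-dependent proteases, had 20.5, 21.0 and 21.6 CPM in winter, against 11.5, 11.3 and 13.0 CPM in YY-1 (0.82 ± 0.15, SE, adjusted p = 0.0015).

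The remaining named rises of scaffold00023 differed in how far the strains were apart. Scaffold00023.1, with the term acid phosphatase, an enzyme that releases phosphate from organic compounds at low pH, had 36.9, 26.04 and 33.3 CPM in winter, against 22.3, 16.2 and 26.8 CPM in YY-1. The strains overlapped, and its log2 fold change was 0.56 ± 0.21 (SE, adjusted p = 0.0467). The call was lost without winter replicate a or c or YY-1 replicate a or b (adjusted p between 0.0872 and 0.138) and with scaling by library totals (0.0662) or upper quartiles (0.0604). Scaffold00023.51, with the term purine ribonucleotide binding, had 10.3, 13.7 and 10.4 CPM in winter, against 5.41, 3.51 and 8.20 CPM in YY-1 (1.02 ± 0.28, SE, adjusted p = 0.0127). Scaffold00023.11, with no term, had 164, 244 and 227 CPM in winter, against 91.7, 83.5 and 102 CPM in YY-1, and was clearly apart (1.20 ± 0.18, SE, adjusted p = 0.00048).

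Averaged over the 6 libraries, scaffold00023.10 had the most reads on the small scaffolds, although scaffold00034.1 had more in every YY-1 library. Scaffold00023.10 was not called although its strains did not overlap. It had 1047, 956 and 986 CPM in winter, against 544, 683 and 857 CPM in YY-1, where the replicates were far apart. The log2 fold change was 0.52 ± 0.20 (SE, adjusted p = 0.0543), and without YY-1 replicate c it was 0.70 with an adjusted p of 0.0134. DESeq2's Wald test called it too (adjusted p = 0.0162). Its share of the reads on scaffold00023 was 34.8%, 32.0% and 32.5% in winter and 20.1%, 25.3% and 29.0% in YY-1.

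Scaffold00023.37, which the study labels as an oxidoreductase, an enzyme that transfers electrons between substrates, showed no call. It had 9.59, 11.7 and 9.96 CPM in winter, against 7.48, 9.60 and 14.4 CPM in YY-1. All winter values lay within the range of the YY-1 values. The log2 fold change was -0.01 ± 0.24 (SE, adjusted p = 0.977) and changed sign with the scaling of the libraries, so no direction can be given.

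Scaffold00026 held rises and falls mixed along its gene order. Scaffold00026.6, with the term zinc ion binding, which many transcription factors and hydrolases carry, was its most read gene, at 1113, 777 and 973 CPM in winter, against 464, 394 and 608 CPM in YY-1. All winter libraries lay above all YY-1 libraries, and the gene rose by 0.97 ± 0.22 on the log2 scale (SE, adjusted p = 0.00458). It held 51.3%, 41.5% and 47.5% of the reads of scaffold00026 in winter and 32.9%, 29.1% and 38.4% in YY-1. Scaffold00026.5, next in CPM averaged over both strains, had 314, 198 and 301 CPM in winter, against 266, 162 and 248 CPM in YY-1. The strains overlapped there, and the difference of 0.27 ± 0.23 (SE) was not called (adjusted p = 0.37).

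Scaffold00026.14 had 16.9, 15.3 and 19.1 CPM in winter, against 8.66, 7.11 and 7.27 CPM in YY-1, with a log2 fold change of 1.16 ± 0.18 (SE, adjusted p = 0.000481). Scaffold00026.4, with terms for GTP binding and nucleoside-triphosphatase activity, as in proteins that switch between a GTP and a GDP form, had 38.7, 40.4 and 40.9 CPM in winter, against 21.7, 26.3 and 24.4 CPM in YY-1 (0.73 ± 0.14, SE, adjusted p = 0.00209). The strains were apart at both genes. Scaffold00026.9, with the term protein import, had 257, 344 and 273 CPM in winter, against 161, 212 and 214 CPM in YY-1 (0.57 ± 0.18, SE, adjusted p = 0.0247), and its call was lost with scaling by library totals (adjusted p = 0.0698) and without winter replicate b or c or YY-1 replicate a (0.0584 to 0.0833).

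The only deep fall on scaffold00026 was at its last gene. Scaffold00026.16 had 10.7, 9.76 and 8.67 CPM in winter, against 35.5, 35.2 and 51.9 CPM in YY-1, or 4.21-fold lower in winter (log2 fold change -2.07 ± 0.20, SE, adjusted p = 2.55e-05). At the other end, the first 2 genes were lower by less: scaffold00026.2 had 12.0, 7.10 and 10.8 CPM in winter, against 27.5, 19.4 and 15.7 CPM in YY-1 (-1.07 ± 0.25, SE, adjusted p = 0.00578), and scaffold00026.1 had 12.9, 8.81 and 10.8 CPM in winter, against 26.19, 15.7 and 13.6 CPM in YY-1 (-0.77 ± 0.26, SE, adjusted p = 0.0299). The winter values of both genes lay below those of YY-1, but the call of scaffold00026.1 was lost without winter replicate b or c or YY-1 replicate a (adjusted p between 0.0745 and 0.161).

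As a share of all counted reads, which uses library totals and not TMM factors, the 93 genes lay lower in every winter library than in every YY-1 library. On the TMM scale their summed level overlapped between the strains, at 6184, 5921 and 6099 CPM in winter and 6171, 5689 and 6982 CPM in YY-1, so no direction can be given for the sum. The 93 genes held 0.588% ± 0.0245 of the reads in winter and 0.647% ± 0.0188 in YY-1 (SD, n = 3 each). Scaffold00023 held 0.292% ± 0.0173 in winter and 0.288% ± 0.00899 in YY-1, and the libraries of the strains overlapped. On the TMM scale scaffold00023 did not overlap, at 3009, 2989 and 3035 CPM in winter and 2710, 2706 and 2953 CPM in YY-1, so this comparison too depends on the scaling. Scaffold00026 held 0.199%, 0.194% and 0.195% in winter, against 0.148%, 0.149% and 0.151% in YY-1. The other 17 scaffolds held 0.0923%, 0.110% and 0.0964% in winter, against 0.216%, 0.179% and 0.233% in YY-1, and both of these sets were apart in every library on either scale. Counting error was small beside the gap: where the other scaffolds came closest, the 95% Wilson interval ran between 0.109% and 0.112% in winter replicate b and between 0.177% and 0.182% in YY-1 replicate b, and it covers counting error only. The most read genes weigh heavily in these sums, scaffold00026.6 in scaffold00026 and scaffold00034.1 in the other scaffolds, so the sums describe reads and not typical genes. No p is given for sums over genes chosen as a group.

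**Figure D5:**
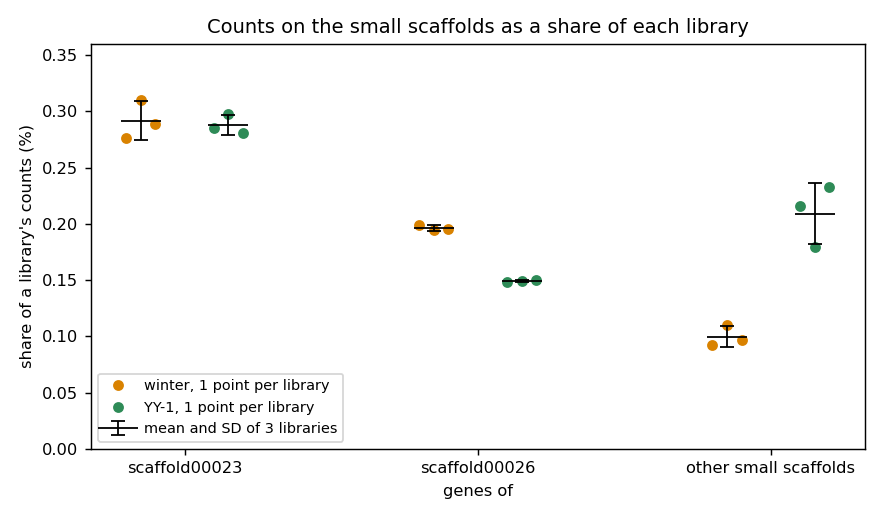
Share of each library's counted reads that fell on scaffold00023, on scaffold00026 and on the other 17 small scaffolds, with 1 point per library, winter left of YY-1, and the mean and SD of 3 libraries in black. Scaffold00026 was higher in winter (0.196% against 0.149%), the other small scaffolds were lower (0.0996% against 0.209%), and scaffold00023 overlapped between strains on this scale of library totals but not on the TMM scale.

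The genes of the small scaffolds were read less than other genes in both strains. The median level of the 93 genes was 15.5 CPM in winter and 14.9 CPM in YY-1, while on C1 to C8 it was 37.5 CPM in winter and 38.1 CPM in YY-1. On scaffold00026 it was 41.6 CPM in winter and 47.4 CPM in YY-1. On scaffold00023 it was 12.7 and 11.3 CPM, and on the other 17 scaffolds 6.87 and 8.90 CPM, in the same order. Mean levels of the 93 genes over both strains ran between 0.87 and 846 CPM. Since exon lengths were not used, shorter genes and lower transcription cannot be told apart in this comparison.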

How the data were processed

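Total RNA from mycelia was made into Illumina libraries, 3 for each strain, and sequenced. Reads were filtered for quality and mapped by the authors to predicted transcripts of M. purpureus YY-1 with at most 2 mismatches, and the authors deposited raw counts of reads on unique exons per gene. The submitters' processing notes name TopHat2 2.0.8b and HTSeq 0.5.4p2. Strand was not stated, so overlapping and antisense genes, like near-identical copies, may share reads. Of the rows, 2 join a pair of gene models.

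The counts were fitted in R 4.3.3 with edgeR 4.0.16 (TMM factors, filterByExpr, quasi-likelihood test, strain as the only term, Benjamini-Hochberg adjustment over 7355 genes). The common dispersion was 0.0308. A change was called at an adjusted p below 0.05. SE is the absolute log2 fold change divided by the square root of F. The script was tested on simulated data. An exact permutation test of 3 libraries against 3 cannot go below p = 0.1, so single values rest on the fit across genes. Replicates differed by more than counting noise, with a median chi-square per gene of 2.02 to 10.2 where noise alone gives 0.455. Figures were drawn with matplotlib 3.10.9.

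The genes described and the lists were chosen with earlier results of these data known. Genes were named where the study labels them, where they were among the 8 largest rises or 8 largest falls called, provided that the strains did not overlap and the mean count reached 50, among the 4 most read, at 0 in 1 strain with at least 30 counts in the other, next to the count rule, or given a specific gene ontology term. Named after their values were seen were scaffold00023.17, scaffold00023.19, scaffold00023.28, the further lower genes between scaffold00023.20 and scaffold00023.30, scaffold00026.1, scaffold00026.2, the genes of scaffold00028, scaffold00029 and scaffold00030 and the remaining single-gene scaffolds. Alternatives were other scaling factors, filters and thresholds, DESeq2 1.42.0, a replicate block and leaving out each library. Restricting the genes to those with 10 counts in all 6 libraries, leaving out scaffold00023 and thinning the winter libraries were added after seeing the data. A reference gene table at hand belongs to another strain and matched 0 of the identifiers.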

Additional observations from a re-analysis of the deposited data

How the results depend on the processing

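Depth limits the genes with few reads, 8 of which had fewer than 10 counts in some library, and p-values rest on 3 libraries a strain. Of the 66 calls among the 93 genes, 49 were kept whichever library was left out, and 48 in all 15 alternatives. With single libraries left out, the number of higher genes ran between 20 (without winter replicate c) and 29 (without YY-1 replicate c) against 27, that of lower genes between 32 and 36 against 39, and the median log2 fold change between -0.29 and -0.20. On scaffold00026 the number of lower genes ran between 2 and 4 against 4. On the 17 scaffolds other than scaffold00023 and scaffold00026, the number of higher genes, 2, was 1 with library totals, 4 with the replicate block and between 0 and 3 with single libraries left out. The number of lower genes there stayed between 14 and 16. The number of higher genes among the 93 was 17 at an adjusted p below 0.01 and 10 for changes over 2-fold. Without scaffold00023 there were 7 higher and 20 lower genes among 39. When the 20 largest genes were left out of each library's total, the share of the 93 genes was 0.701% in winter and 0.774% in YY-1, since the total is then smaller. The log2 fold change of scaffold00023.37 changed sign, to 0.0153 with DESeq2's size factors, 0.0150 in the DESeq2 Wald test and 0.0252 with the replicate block, and it ran between -0.17 and 0.28 with single libraries left out. For the other named genes the cause of lost calls was not tested. Replicate letters were not treated as pairs in the main fit. The correlation of deviations was 0.0966 for letter a, 0.278 for b and 0.104 for c. Between libraries of different letters it ran between -0.296 and 0.178. These values do not settle whether the letters pair the libraries. A replicate block kept all 66 calls and added 4, among them scaffold00023.10 (log2 fold change 0.54, adjusted p = 0.0353).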
